A study of Mus musculus with 12 samples.

Results

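The genes described here encode the tricarboxylic acid (TCA) cycle and the reactions that feed it from glutamine, drain it to pyruvate and phosphoenolpyruvate, and lead from glutamate to proline. They are a list of 30 genes, taken by symbol from the 39179 Ensembl genes of the deposited count table: 20 of the cycle itself, with its assembly factors, and 10 of its side branches. All 30 were found, and 25 had enough counts to be tested, 18 of the cycle and 7 of the side branches. The other five were Idh1, Suclg2, Me1, Pycr1 and D2hgdh.

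The TCA cycle oxidises acetyl groups in the mitochondrial matrix and passes the electrons to the respiratory chain, and several of its intermediates leave it as building blocks. Activated T cells take up much glucose and glutamine. They turn most of the pyruvate from glucose into lactate through lactate dehydrogenase, whose A subunit is LDHA, while glutamine enters the cycle as oxoglutarate by way of glutaminase and glutamate dehydrogenase. Glutamate is also the start of proline synthesis, and oxoglutarate is a substrate of demethylases of histones and DNA.

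The cells were primary mouse CD4 T cells on a C57BL/6 background, cultured for 3 days towards the Th1 fate, that of helper cells that make interferon-gamma. The groups were wild type (WT) and LDHA-KO, with 2 RNA libraries each; the 8 chromatin samples of the series were not analysed here. Both groups had plate-bound anti-CD3 (5 µg/ml), anti-CD28 (2 µg/ml), IL-2 (100 U/ml), anti-IL-4 (10 µg/ml) and IL-12 (10 ng/ml), in a medium that held 2 mM glutamine and 1 mM pyruvate, and both were then restimulated for 4 h with PMA (50 ng/ml) and ionomycin (1 µM) in the presence of GolgiStop, which blocks secretion. The labels used here give neither the knockout allele nor what drove the deletion, and nothing in them says that replicate libraries were taken from different mice, so the spread between replicates may be technical. The comparison shows what loss of LDHA, the enzyme that normally takes pyruvate away from mitochondria, was accompanied by in the transcripts of these pathways.

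Library totals were 919741 to 1293178 counts, so that 1 count was worth 0.765 to 1.13 CPM (counts scaled to the TMM-adjusted library size), with 3 counts, the limit for a gene listed at 0, equal to 2.296 to 3.39 CPM. Ldha itself had 1055 and 1006 counts in WT against 42 and 53 in LDHA-KO. T cell markers were present in every library (8 genes, summed level 962 to 1007 CPM). Of these, Cd4 was higher in LDHA-KO (log2 fold change 0.51) and Cd28 (-0.53) and Trbc2 (-0.55) lower at an edgeR adjusted p under 0.05. The other T cell markers did not pass. Th1 markers were also present, with 5 genes summing to 1999 CPM in both WT libraries against 672 and 658 CPM in LDHA-KO. Most of this was Ifng, at 1585 and 1580 CPM in WT against 382 and 387 CPM in LDHA-KO. Il12rb2 and Cxcr3 also passed as lower, while Tbx21 and Stat4 did not pass (edgeR adjusted p = 0.113 and 0.160). Of the markers of other cell types, the myeloid list summed to 334 and 332 CPM in WT against 397 and 411 CPM in LDHA-KO. Csf1r gave nearly all of this, with 348 to 462 counts a library; Lyz2 and Adgre1 were at 0 and no other of the 6 genes exceeded 7 counts. The B cell (5 genes), NK (3), dendritic (3), CD8 T cell (2) and erythroid (3) lists each summed to at most 16.1 CPM in any library; Cd79b, Ncr1, Klrb1c, Hba-a1 and Hbb-bs were at 0, and the erythroid sum, all from Alas2, was 16.1 and 14.2 CPM in WT against 1.13 and 6.16 CPM in LDHA-KO. Foxp3, of regulatory T cells, stood at 96.4 and 80.7 CPM in WT against 109 and 107 CPM in LDHA-KO. The part of these markers in the results was not tested.

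The strand setting of the counting is not given in the sources used here. Some gene pairs that lie on opposite strands bear on it; they were chosen after their values were seen. Snx22 held 18.0 to 22.5 times the counts of Ppib in each library, and Phykpl 5.07 to 9.84 times those of Hnrnpab; in both pairs the 2 genes overlap on opposite strands and the second encodes an abundant protein. For mt-Nd6, the gene on the other mitochondrial strand, the counts were 3.72 to 6.21 times those of its neighbour mt-Cytb. If the strand opposite to the RNA was counted, the counts of every gene are of reads from the strand opposite to it. This would hold for Ldha and the markers too, and it was not tested. Csf1r (chr18:61105572-61131139) lies beside Hmgxb3 (chr18:61131277-61177050). Of the 30 genes, 21 overlap no other RefSeq gene, and 9 overlap at least 1. The overlaps with protein-coding genes are Idh3b with Nop56 (5 bp, opposite strands), Dlst with Prox2 (64 bp, opposite strands) and Gls2 with Spryd4 (97 bp).

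Between LDHA-KO and WT, 6 of the 25 tested genes rose and 6 fell at an adjusted p under 0.05 (edgeR's quasi-likelihood test, adjusted over all tested genes). Over all 9914 tested genes 31.0% were called, 15.6% higher and 15.4% lower. In the cycle 6 of 18 tested genes rose (Cs, Idh2, Idh3a, Ogdh, Sdha and Sdhd) and 1 fell (Suclg1), with a median log2 fold change of 0.17. In the side branches 5 of 7 tested genes fell (Glud1, Me2, Oat, Aldh18a1 and Pck2) and 0 rose, with a median of -0.57. The median was -0.04 over all 25 and -0.01 over all tested genes. The values for LDHA-KO lay outside those of WT for 20 of the 25 genes, against 64.3% of all tested genes: 10 lay above, against 31.8%, and 10 below, against 32.6%. Of the 12 calls, Glud1, Pck2 and Ogdh were made under all 10 alternatives tried; DESeq2, used in place of edgeR, called these 3 of the 25, 1 higher and 2 lower, where it called 11.0% of the genes it tested, 6.01% higher and 4.98% lower. With 2 libraries a group, an exact permutation test of 1 gene cannot go below a two-sided p of 0.333, so every call rests on the model's spread shared between genes. In bulk RNA, fewer cells of a kind and less RNA per cell cannot be told apart.

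**Figure D1:**
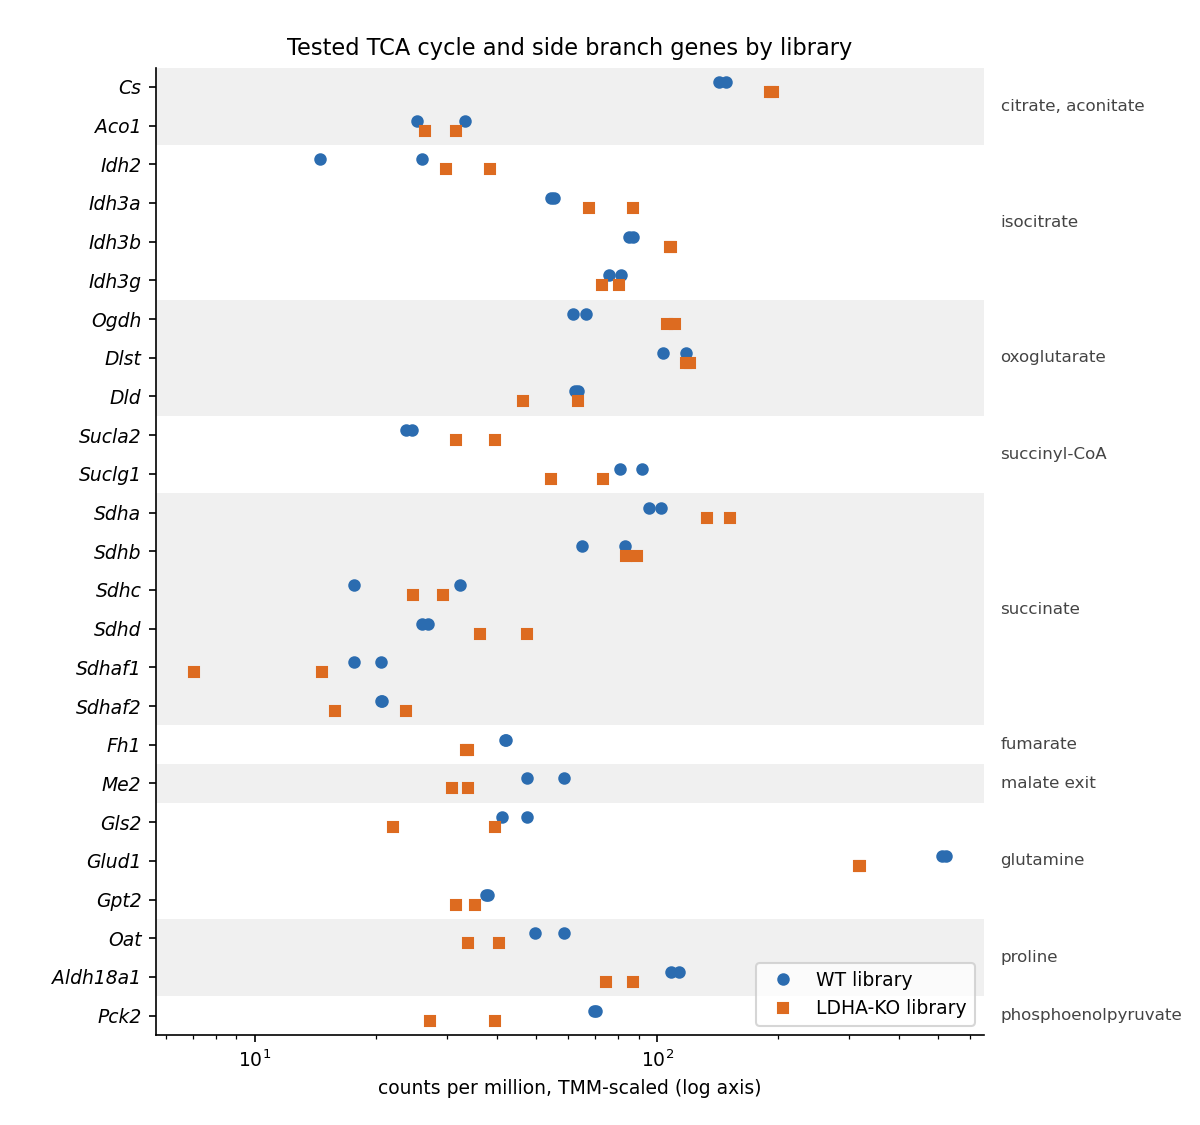
Level of the 25 tested genes in each library, in TMM-scaled CPM on a log axis, with WT libraries as circles and LDHA-KO libraries as squares, ordered by step. For Ogdh both LDHA-KO libraries lie above both WT libraries, and for Glud1, Pck2 and Me2 both lie below.

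**Figure D2:**
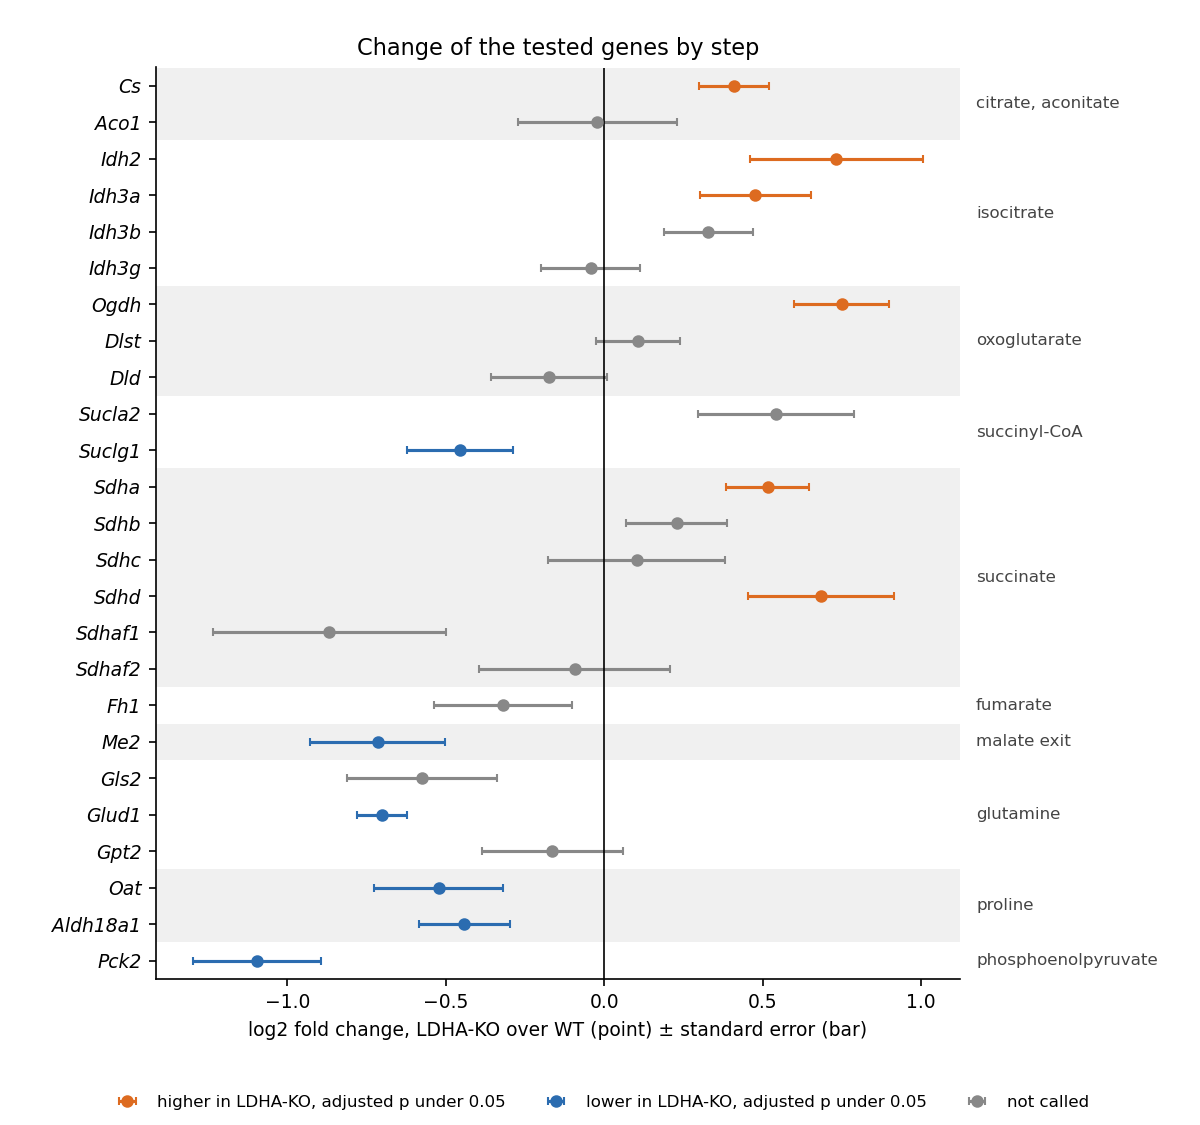
Log2 fold change of LDHA-KO over WT (points) with its standard error (bars) for the same 25 genes, coloured by whether the gene passed the test and in which direction. The called rises are all in the cycle, from Cs to Sdhd, and the called falls are Suclg1 and 5 side branch genes.

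Citrate synthase, encoded by Cs (chr10:128337727-128362482, GRCm38.p6), joins acetyl-CoA to oxaloacetate at the entry of the cycle. Cs stood at 142 and 148 CPM in the WT libraries against 194 and 191 CPM in the LDHA-KO libraries. The groups were well apart, and the rise of 1.33-fold passed the test (log2 fold change 0.41 ± 0.11 SE, adjusted p = 0.00364 by edgeR). Cs was not called by DESeq2 (adjusted p = 0.138), and its model overlaps a long noncoding gene model and a snoRNA. Aco1 encodes the cytosolic aconitase, which doubles as the iron sensor IRP. Aco1 was at 25.3 and 33.2 CPM in WT against 31.7 and 26.4 CPM in LDHA-KO, values that interleave (log2 fold change -0.02 ± 0.25 SE, adjusted p = 0.955 by edgeR).

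Isocitrate is oxidised to oxoglutarate by the NAD-dependent enzyme IDH3, built from the products of Idh3a, Idh3b and Idh3g, and by the NADP-dependent enzymes IDH2 in mitochondria and IDH1 in the cytosol. Idh2 (chr7:80094845-80118608) had 14.5 and 26.1 CPM in WT against 38.4 and 29.9 CPM in LDHA-KO. Both LDHA-KO libraries were above both WT libraries, though the WT libraries differed much between themselves, at 19 and 33 counts. Its rise of 1.66-fold was called (log2 fold change 0.73 ± 0.27 SE, adjusted p = 0.0374 by edgeR). The call was lost in 7 of the 10 alternatives, among them without WT replicate 1 (0.36, edgeR adjusted p = 0.415) or LDHA-KO replicate 1 (0.57, edgeR adjusted p = 0.223), in DESeq2 (adjusted p = 0.367), and with library totals in place of TMM (edgeR adjusted p = 0.0720). Without WT replicate 2 the value was 1.204 (edgeR adjusted p = 0.00422). Idh1 held only 5 and 3 counts in WT against 3 and 4 in LDHA-KO, too few to test; the ratio of LDHA-KO to WT was 1.11 with a 95% counting interval of 0.344 to 3.51.

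Among the IDH3 subunits, Idh3a (chr9:54586511-54604662), which encodes the catalytic subunit, rose from 54.3 and 55.4 CPM to 87.1 and 67.8 CPM (log2 fold change 0.48 ± 0.17 SE, adjusted p = 0.0335 by edgeR). This call sat close to the threshold: it was lost in 8 of the 10 alternatives, among them DESeq2 (adjusted p = 0.333), without WT replicate 1 (0.46), WT replicate 2 (0.49) or LDHA-KO replicate 1 (0.32). Idh3b was at 84.9 and 87.0 CPM in WT against 109 and 107 CPM in LDHA-KO, without overlap, but did not pass (log2 fold change 0.33 ± 0.14 SE, adjusted p = 0.0700 by edgeR). Its opposite-strand neighbour Nop56 fell by 0.37 on the log2 scale (edgeR adjusted p = 0.0188). Idh3g, the other regulatory subunit gene, had 75.8 and 81.4 CPM in WT against 80.3 and 73.1 CPM in LDHA-KO (log2 fold change -0.04 ± 0.16 SE, adjusted p = 0.870 by edgeR). Of the 3 subunit genes, only Idh3a was called; the difference between subunits was not tested.

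The oxoglutarate dehydrogenase complex turns oxoglutarate into succinyl-CoA. Ogdh (chr11:6291597-6359094) encodes its E1 component, which binds the substrate, Dlst the E2 core and Dld the E3 component that is shared with pyruvate dehydrogenase. Ogdh had 66.6 and 61.7 CPM in WT against 111 and 106 CPM in LDHA-KO. Replicates lay within a few CPM of each other and the groups were far apart. The rise of 1.68-fold had the smallest adjusted p among the cycle genes (log2 fold change 0.75 ± 0.15 SE, adjusted p = 0.00012 by edgeR), and the fitted value stayed between 0.67 and 0.81 under all 10 alternatives, each of which called it. The Ogdh model overlaps a long noncoding gene model on the other strand and a pseudogene. Dlst stood at 118 and 104 CPM in WT against 121 and 118 CPM in LDHA-KO (log2 fold change 0.11 ± 0.13 SE, adjusted p = 0.583 by edgeR). Dld was at 63.5 and 62.5 CPM in WT against 46.4 and 63.4 CPM in LDHA-KO, where the 2 LDHA-KO libraries disagreed (log2 fold change -0.17 ± 0.18 SE, adjusted p = 0.512 by edgeR).

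Succinyl-CoA synthetase pairs the alpha subunit encoded by Suclg1 with either of 2 beta subunits, the ATP-forming one of Sucla2 or the GTP-forming one of Suclg2. Suclg1 (chr6:73248505-73276907) fell from 91.8 and 80.7 CPM to 73.5 and 54.6 CPM, the only called fall in the cycle (log2 fold change -0.45 ± 0.17 SE, adjusted p = 0.0339 by edgeR). The groups did not overlap, but the call was lost in 5 of the 10 alternatives, among them DESeq2 (adjusted p = 0.392), without WT replicate 1 (-0.36, edgeR adjusted p = 0.202) and without LDHA-KO replicate 2 (-0.22, edgeR adjusted p = 0.517). Sucla2 lay the other way, at 23.7 and 24.5 CPM in WT against 39.6 and 31.7 CPM in LDHA-KO, without passing the test (log2 fold change 0.54 ± 0.25 SE, adjusted p = 0.0908 by edgeR). Suclg2 held 9 and 11 counts in WT against 7 and 9 in LDHA-KO, a ratio of 1.02 (95% counting interval 0.493 to 2.07).

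Succinate dehydrogenase is both an enzyme of the cycle and complex II of the respiratory chain. Sdha encodes its flavoprotein, Sdhb the iron-sulfur protein, and Sdhc and Sdhd the membrane anchors. Sdha (chr13:74322255-74350240) rose from 95.6 and 102 CPM to 151 and 133 CPM, with both LDHA-KO libraries above both WT libraries (log2 fold change 0.52 ± 0.13 SE, adjusted p = 0.00198 by edgeR). DESeq2 did not call it (adjusted p = 0.102). Sdhd (chr9:50596340-50603849) rose from 26.0 and 26.9 CPM to 36.2 and 47.5 CPM (log2 fold change 0.68 ± 0.23 SE, adjusted p = 0.0206 by edgeR). Sdhd lost its call in DESeq2 (adjusted p = 0.339), without WT replicate 1 (0.66), WT replicate 2 (0.71) or LDHA-KO replicate 2 (0.46, edgeR adjusted p = 0.354), and after thinning to the smallest library total (0.55). The start of Sdhd lies 52 bp from that of Timm8b on the other strand, which had a log2 fold change of 0.36 (edgeR adjusted p = 0.153). Nkapd1, 1391 bp from Sdhd, was called higher, with a log2 fold change of 0.46 (edgeR adjusted p = 0.0029).

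Sdhb was at 65.0 and 83.0 CPM in WT against 83.7 and 88.9 CPM in LDHA-KO (log2 fold change 0.23 ± 0.16 SE, adjusted p = 0.288 by edgeR). Sdhc had 17.6 and 32.4 CPM in WT against 29.4 and 24.7 CPM in LDHA-KO, so its WT libraries spanned both LDHA-KO values (log2 fold change 0.10 ± 0.28 SE, adjusted p = 0.821 by edgeR). Neither assembly factor gene was called. Sdhaf1, whose product helps to place the iron-sulfur clusters, had 23 and 26 counts in WT against 13 and 8 in LDHA-KO (log2 fold change -0.87 ± 0.37 SE, adjusted p = 0.0677 by edgeR). It was called lower with library totals alone (-0.95, edgeR adjusted p = 0.0466) and without LDHA-KO replicate 1 (-1.41, edgeR adjusted p = 0.0310), while without LDHA-KO replicate 2 its value was -0.36 (edgeR adjusted p = 0.640). Sdhaf2, needed to attach flavin to SDHA, was at 20.7 and 20.6 CPM in WT against 23.7 and 15.8 CPM in LDHA-KO (log2 fold change -0.09 ± 0.30 SE, adjusted p = 0.853 by edgeR).

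The 76 bases before the RefSeq start of Sdha, up to the divergent gene Ccdc127, are shown because Sdha was the succinate dehydrogenase subunit gene with the smallest adjusted p and carries matches to the motif of nuclear respiratory factor 1 (NRF1), a factor of nuclear genes for mitochondria. Both strands were searched, and matches are in capitals (chr13:74350241-74350316, minus strand, GRCm38.p6, sequence from RefSeq, 5′ to 3′):
Sdha: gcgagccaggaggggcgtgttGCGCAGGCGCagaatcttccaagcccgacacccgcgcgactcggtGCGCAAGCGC
The matches begin 55 and 10 bases before the start, and 1 more lies upstream of the stretch shown. Of 26 genes of the list with a promoter in the RefSeq table (250 bases before the start to 50 after), 5 had such a match (Dld, Sucla2, Sdha, Sdhd and Aldh18a1); by windows, 5 of their 33 had one, while 6.23% of all 32851 promoter windows did. These 5 comprise 2 genes that rose, 1 that fell and 2 that were not called. The same windows were searched for the E-box (CACGTG) and the ERR element (TCAAGGTCA). The E-box was in 2 of the 26 genes, Ogdh and Aldh18a1. By windows it was in 4 of the 33, and in 7.15% of all windows. Ogdh has 6 windows, some of them overlapping, so that a site can be counted more than once. The ERR element was in 1 of the 33, of Sdhd, and in 0.423% of all windows. A match describes letters and not a bound site.

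Fumarase, encoded by Fh1, hydrates fumarate to malate. Fh1 was at 42.1 and 41.9 CPM in WT against 33.9 and 33.5 CPM in LDHA-KO. Replicates were nearly equal and the groups did not overlap, but the difference, of 55 and 53 counts to 30 and 38, did not pass (log2 fold change -0.32 ± 0.22 SE, adjusted p = 0.279 by edgeR).

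Malic enzymes take malate out of the cycle to pyruvate. Me2 (chr18:73764954-73815438), for the mitochondrial enzyme, fell from 47.4 and 58.5 CPM to 33.9 and 30.8 CPM (log2 fold change -0.72 ± 0.21 SE, adjusted p = 0.00841 by edgeR). Both LDHA-KO libraries were below both WT libraries. The call was lost in DESeq2 (adjusted p = 0.234), without WT replicate 2 (-0.56, edgeR adjusted p = 0.104) or LDHA-KO replicate 2 (-0.63, edgeR adjusted p = 0.114), and after thinning (-0.57, edgeR adjusted p = 0.0604). Me1, for the cytosolic enzyme, had 1 count in a single LDHA-KO library and 0 in the other 3 libraries, so neither group rose above the level that a count of 0 allows.

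Glutamine carbon reaches the cycle in 2 steps, glutamine to glutamate by glutaminase and glutamate to oxoglutarate by glutamate dehydrogenase or by transaminases. Glud1 (chr14:34310727-34345033), which encodes glutamate dehydrogenase, was the most deeply counted gene of the list, with 684 and 647 counts in WT against 281 and 362 in LDHA-KO. Its level was 523 and 512 CPM in WT against 318 and 319 CPM in LDHA-KO. The fall was 1.63-fold, with replicates within a few percent of each other (log2 fold change -0.70 ± 0.08 SE, adjusted p = 1.32e-09 by edgeR), and it was called under all 10 alternatives, with values from -0.78 to -0.69. Glud1 overlaps no other RefSeq gene; a transcribed pseudogene lies 22 bp away.

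Gls2, for the liver-type glutaminase, had 47.4 and 41.1 CPM in WT against 39.6 and 22.0 CPM in LDHA-KO. The groups did not overlap, by a small margin, and the difference did not pass (log2 fold change -0.57 ± 0.24 SE, adjusted p = 0.0591 by edgeR). Gls2 was called lower with library totals alone (-0.66, edgeR adjusted p = 0.0331), without WT replicate 2 (-0.67, edgeR adjusted p = 0.0459) and without LDHA-KO replicate 1 (-0.995, edgeR adjusted p = 0.00736), while without LDHA-KO replicate 2 its value was -0.16 (edgeR adjusted p = 0.768). Spryd4, which overlaps it, had 15 and 14 counts in WT against 3 and 7 in LDHA-KO (log2 fold change -1.17, edgeR adjusted p = 0.0657). Gpt2 encodes the mitochondrial alanine transaminase, which passes nitrogen from glutamate to pyruvate and so yields oxoglutarate and alanine. It stood at 37.5 and 38.0 CPM in WT against 31.7 and 35.2 CPM in LDHA-KO (log2 fold change -0.16 ± 0.22 SE, adjusted p = 0.625 by edgeR).

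Proline is made from glutamate by way of pyrroline carboxylate. Aldh18a1 encodes the synthase of this intermediate, Oat the ornithine aminotransferase that links it to ornithine, and Pycr1 the mitochondrial reductase that completes proline. Aldh18a1 (chr19:40550257-40588463) fell from 113 and 108 CPM to 74.6 and 87.2 CPM (log2 fold change -0.44 ± 0.14 SE, adjusted p = 0.016 by edgeR). Its call was lost in DESeq2 (adjusted p = 0.281), without WT replicate 1 (-0.41, edgeR adjusted p = 0.0791) and without LDHA-KO replicate 1 (-0.33, edgeR adjusted p = 0.178). Oat (chr7:132557475-132576398) fell from 49.7 and 58.5 CPM to 33.9 and 40.5 CPM, just past the threshold (log2 fold change -0.52 ± 0.20 SE, adjusted p = 0.0470 by edgeR). Oat lost its call in 7 of the 10 alternatives, among them DESeq2 (adjusted p = 0.411), without WT replicate 2 (-0.40), LDHA-KO replicate 1 (-0.40) or LDHA-KO replicate 2 (-0.66, edgeR adjusted p = 0.0904).

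Pycr1 (chr11:120638998-120643748) was under the filter, with 11 and 8 counts in WT against 3 and 5 in LDHA-KO. Its ratio of WT to LDHA-KO was 1.87 with a 95% counting interval of 0.780 to 4.93, which includes no difference. D2hgdh, whose enzyme returns D-hydroxyglutarate to oxoglutarate, had 2 and 2 counts in WT against 3 and 1 in LDHA-KO, and a difference was not detectable at this depth.

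Pck2 (chr14:55540263-55550020) encodes the mitochondrial phosphoenolpyruvate carboxykinase, which turns oxaloacetate into phosphoenolpyruvate. Pck2 had 92 and 88 counts in WT against 35 and 31 in LDHA-KO, or 70.4 and 69.6 CPM against 39.6 and 27.3 CPM. It showed the largest fold change of the 25 tested genes, a fall of 2.14-fold with the groups far apart (log2 fold change -1.10 ± 0.20 SE, adjusted p = 4.00e-05 by edgeR). Each of the 10 alternatives called it, with values from -1.34 to -0.81 (DESeq2 adjusted p = 0.0172). It overlaps no other RefSeq gene.

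Pck2 and Pycr1 are known targets of ATF4, the transcription factor of the amino acid response, as are Asns (asparagine synthetase) and Psat1 (phosphoserine aminotransferase) among the neighbouring genes. They are examples and not a full list of its targets among the genes described here. Targets left out may include genes that were not called, so the examples do not show how its targets changed as a set. A part of ATF4 in any of the changes was not tested. ATF4 binds, with C/EBP partners, a composite element abbreviated CARE. Its letters TGATGNAA, searched on both strands, were found in 2 of the 26 listed genes with a promoter in the RefSeq table, Pck2 and Pycr1, in 3 of 34 neighbouring genes, Asns, Got1 and Me3. By windows these are 2 of 33 and 3 of 41, and 3.97% of all promoter windows held the letters. Of these 5 genes, Pck2, Asns and Got1 fell, Pycr1 was under the filter and Me3 was at 0 counts. The windows of 4 are shown, with the matching letters in capitals, read 5′ to 3′ on the gene's strand and taken from before the start in the RefSeq table:
Pck2: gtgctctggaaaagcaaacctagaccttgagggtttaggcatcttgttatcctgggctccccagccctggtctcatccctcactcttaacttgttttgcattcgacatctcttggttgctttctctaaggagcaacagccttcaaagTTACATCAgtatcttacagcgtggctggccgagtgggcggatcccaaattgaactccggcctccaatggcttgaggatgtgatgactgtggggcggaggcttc
Pycr1: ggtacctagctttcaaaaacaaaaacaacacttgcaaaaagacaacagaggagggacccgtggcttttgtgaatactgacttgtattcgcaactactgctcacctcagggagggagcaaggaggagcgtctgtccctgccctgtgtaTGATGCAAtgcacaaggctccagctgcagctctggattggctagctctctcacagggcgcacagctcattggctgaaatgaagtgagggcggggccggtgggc
Asns: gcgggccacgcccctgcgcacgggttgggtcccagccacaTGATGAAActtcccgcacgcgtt
Got1: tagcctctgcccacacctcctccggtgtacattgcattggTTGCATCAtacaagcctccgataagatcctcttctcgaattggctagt
The windows are chr14:55540016-55540265 (plus strand) for Pck2 and chr11:120643749-120643998 (minus) for Pycr1, with 250 bases each, and chr6:7693210-7693272 (minus) for Asns and chr19:43524660-43524747 (minus) for Got1, all in GRCm38.p6. In Pck2 and Pycr1 the match begins 103 bases before the start, in Got1 102 bases and in Asns 23 bases. In Pycr1 and Asns the letters stand in the orientation searched, and in Pck2 and Got1 as the reverse complement. The called falls Glud1, Suclg1, Oat, Aldh18a1, Psat1 and Slc25a1 had promoters in the table without these letters, which says nothing of the factor's binding elsewhere.

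Ratios of raw counts between genes of a step do not depend on how libraries are scaled; the 4 pairs were chosen after their values were seen and carry no test. Suclg1 over Sucla2 was 3.87 and 3.29 in WT against 1.86 and 1.72 in LDHA-KO. Ogdh over Dlst was 0.565 and 0.595 in WT against 0.916 and 0.896 in LDHA-KO. In both pairs the spread between replicates was small beside the distance between genotypes. Idh3g over Idh3a went from 1.39 and 1.47 to 0.922 and 1.08. Glud1 over Got2, the mitochondrial aspartate transaminase that also makes oxoglutarate from glutamate, went from 6.98 and 6.88 to 3.80 and 4.26. For all 4 ratios the groups did not overlap, which the choice of pairs by their values can bring about. Other pairs were computed and are not shown.

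**Figure D3:**
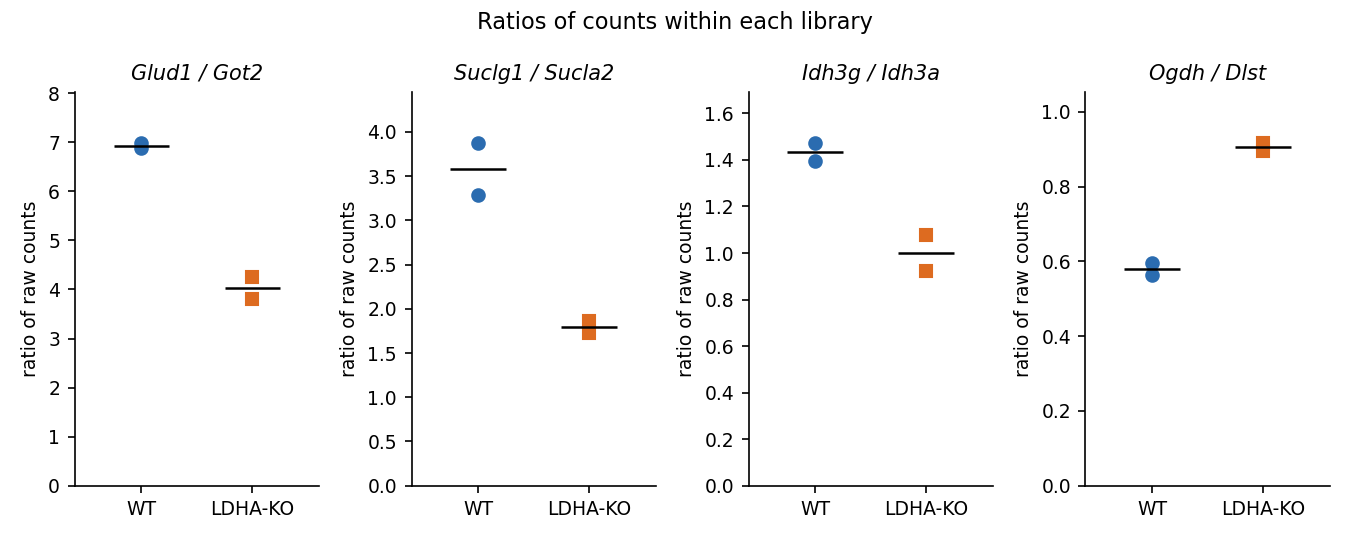
Ratio of the raw counts of 2 genes within each library, on linear axes that start at 0, with the mean of each genotype as a line. Suclg1 over Sucla2 was 3.58 ± 0.411 (SD, n = 2) in WT against 1.79 ± 0.0954 in LDHA-KO, and Ogdh over Dlst rose from 0.580 ± 0.0216 to 0.906 ± 0.0144.

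A list of 45 neighbouring genes, of pyruvate entry, the rest of the cycle, glutamine, amino acids, proline and carriers, had 29 tested members, of which 2 rose and 8 fell, where 15.6% of all tested genes rose and 15.4% fell. Their median log2 fold change was 0.04. At the entry of pyruvate, Pdha1, the catalytic subunit gene of pyruvate dehydrogenase, rose from 109 and 108 CPM to 161 and 165 CPM (log2 fold change 0.59 ± 0.12 SE, adjusted p = 0.000182 by edgeR). Pdp1, for a phosphatase that activates this enzyme, fell from 23 and 22 counts to 3 and 4, a ratio of WT to LDHA-KO of 5.05 (95% counting interval 2.26 to 13.3; edgeR adjusted p = 0.000189). Pdk1, for a kinase that inhibits it, rose by 0.70 on the log2 scale (± 0.27 SE, adjusted p = 0.0415 by edgeR). Its call was lost in 8 of the 10 alternatives, among them without WT replicate 1 (0.80), WT replicate 2 (0.61) and LDHA-KO replicate 1 (0.54). The Pdha1 model overlaps the protein-coding gene Map3k15 and a long noncoding gene model.

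Mdh2 and Mdh1, for the mitochondrial and cytosolic malate dehydrogenases, had log2 fold changes of 0.12 and 0.11 (edgeR adjusted p = 0.468 and 0.708). Neither passed the test.

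Among the 10 tested genes of glutamine and amino acid use, 6 fell and 0 rose, where 15.4% of all tested genes fell and 15.6% rose. Slc38a1, a glutamine transporter gene, fell from 246 and 287 CPM to 147 and 144 CPM (log2 fold change -0.88 ± 0.11 SE, adjusted p = 1.27e-08 by edgeR). Asns, whose enzyme uses glutamine, fell from 65.0 and 68.0 CPM to 37.3 and 29.9 CPM (log2 fold change -1.0 ± 0.20 SE, adjusted p = 0.000127 by edgeR), and neither gene lost its call under any of the 10 alternatives.

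Other called falls were in transaminase and transporter genes. Got1, the cytosolic aspartate transaminase gene, fell by 0.64 on the log2 scale (± 0.18 SE, adjusted p = 0.00563 by edgeR), and lost its call in DESeq2 (adjusted p = 0.179) and without WT replicate 2 (-0.54) or LDHA-KO replicate 1 (-0.50). Its mitochondrial counterpart Got2 had 0.08 (± 0.16 SE, adjusted p = 0.757 by edgeR). Psat1 fell by 0.49 (± 0.12 SE, adjusted p = 0.00135 by edgeR), and lost its call in DESeq2 (adjusted p = 0.103) and without LDHA-KO replicate 2 (-0.39). The glutamine transporter gene Slc1a5 fell by 0.30 (± 0.11 SE, adjusted p = 0.0347 by edgeR), a call lost in 7 of the 10 alternatives, among them DESeq2 (adjusted p = 0.363) and the omission of any single library (-0.40 to -0.21). Slc25a1, the gene of the citrate carrier, fell by 0.50 (± 0.18 SE, adjusted p = 0.0300 by edgeR), and was not called in DESeq2 (adjusted p = 0.366), after thinning to the smallest library total (-0.50, edgeR adjusted p = 0.0810), or without WT replicate 1 (-0.36) or LDHA-KO replicate 2 (-0.38).

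**Figure D4:**
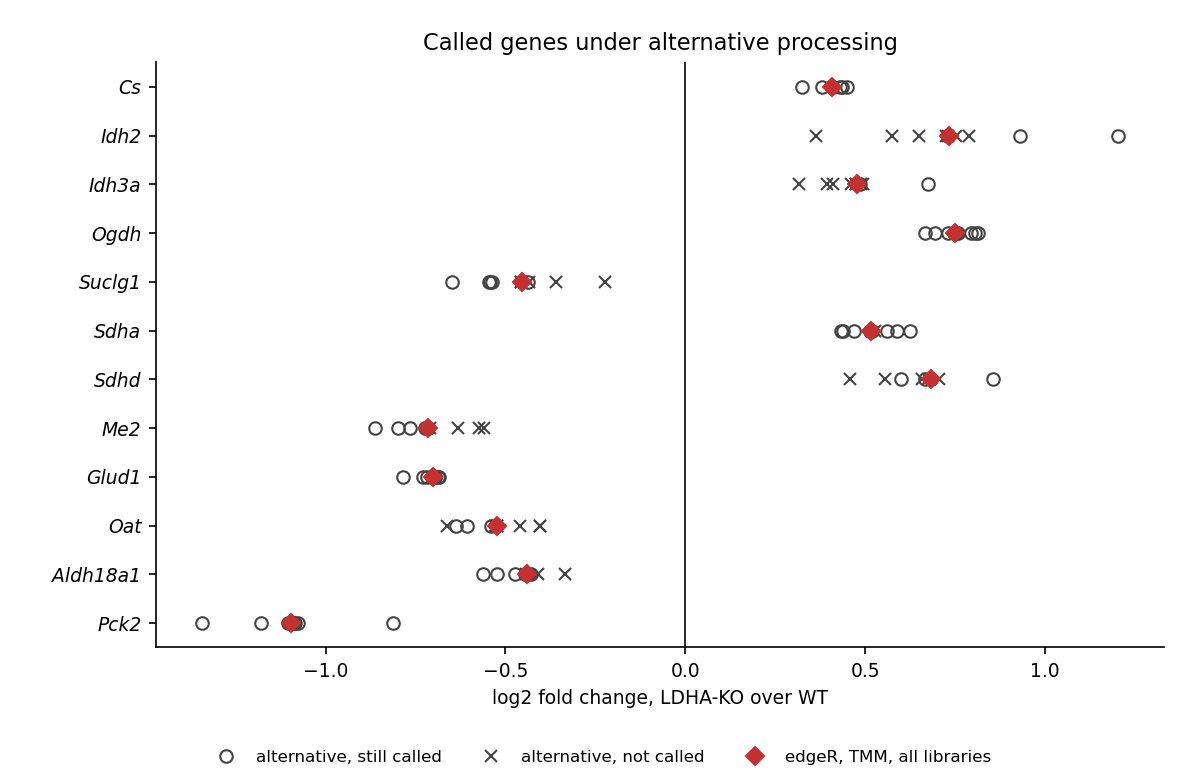
Log2 fold change of the 12 called genes of the list in edgeR with TMM scaling and all libraries (diamonds) and under the 10 alternatives (circles where still called, crosses where not). No value crosses 0; Glud1, Pck2 and Ogdh have no crosses, Cs and Sdha have 1 each, and Idh3a has 8.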

How the data were processed

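The values are counts of reads per Ensembl gene, deposited by the authors as 1 table without normalisation. Per the submitters' processing notes, the tools of the series were Trimmomatic 0.33, FastQC 0.11.2, Bowtie2 2.2.6, STAR 2.3.0e and HTSeq 0.6.0, with build mm10 (GRCm38); their roles, the annotation release and the strand setting were not found there or in the labels. The table's columns name genotype and number, and were taken as the RNA libraries because they hold counts per gene. Of 43374 rows, 4195 repeated an ID with the same values and were removed. Glud1 and Sdhd were among the repeated IDs.

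Counts were tested with edgeR 4.0.16 (R 4.3.3), quasi-likelihood F-tests after TMM scaling, the default filter (minimum count 10, total 15), genotype as the only factor and Benjamini-Hochberg adjustment over 9914 genes. SE were derived from the F statistic. CPM are TMM-scaled, over the counts of tested genes. Levels were not compared between genes, since no transcript lengths were used. Counting intervals are exact binomial (95%), cover counting error only, and the floor is 3 counts. The script was tested on simulated data. Replicates differed by more than counting noise (chi-square per gene 1.15 in WT, 1.23 in LDHA-KO). The alternatives were DESeq2 1.42.0 and 9 other settings. Called listed genes and the called neighbouring genes reported here were described with their statistics, and the other listed genes by their values; Mdh1, Mdh2, Got2 and the genes beside or overlapping listed ones were named after their values were seen. Genes and lists were chosen with earlier results of these data known. Symbols, positions and promoters came from the Ensembl and RefSeq (GRCm38.p6) tables; 4 listed genes had no promoter there. Some neighbouring genes are counted but not reported here by name.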

Additional observations from a re-analysis of the deposited data

How the results depend on the processing

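With DESeq2, 1048 genes were called in all (573 higher, 475 lower), 3 of the 25 tested genes of the list (1 higher, 2 lower), 1 in the cycle (1 higher, 0 lower), 2 in the side branches and 4 neighbouring genes. With library totals in place of TMM, 4 listed genes rose and 8 fell, with 4 higher and 2 lower in the cycle, and 38.3% of all calls were higher against 50.4% with TMM. Without a filter 0 cycle genes fell, of 2895 calls among 18659 genes, and with CPM above 1 in at least 2 libraries 4 cycle genes were called, 4 higher and 0 lower, of 2792 calls among 14295 genes. After thinning to the smallest library total, 2493 of 9162 genes were called (1245 higher); 7 listed genes were called (3 higher), 4 in the cycle (3 higher) and 3 in the side branches. Leaving out 1 library at a time gave 1973 to 2412 calls over all genes (1018 to 1231 higher, 955 to 1208 lower), 7 to 10 in the list (3 to 5 higher, 3 to 6 lower), 3 to 6 in the cycle (3 to 5 higher, 0 to 2 lower), 3 to 4 in the side branches and 6 to 7 neighbouring genes; the lone library left is assumed to vary like the other group. Of these 4 fits, the fewest calls over all genes came without LDHA-KO replicate 2. The cause was not tested. No effect shared by equal replicate numbers of the 2 genotypes was seen (Pearson's r of replicate differences across 9914 genes -0.03). Since counting noise enters these differences, this cannot show whether such libraries were prepared as pairs. With a replicate block 2803 genes were called, 11 of them in the list, and Idh2 was not among these (0.73, edgeR adjusted p = 0.0682). No listed gene changed direction with a call under any alternative.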
